A study of Mus musculus with 3 samples.

Results

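The actin cytoskeleton genes described here are 44 named genes for actin, the proteins that bind its monomers and filaments, and the intermediate filament gene Vim. They were matched by GENCODE M21 symbol to 45 of the 55536 annotated gene IDs, since Myl12b has a second ID. Expression was measured by polyA plus RNA sequencing of effector memory CD4-positive, alpha-beta T cells, which are antigen-experienced helper T cells. The cells were primary cells of 1 adult male mouse of strain B6.SJL-Ptprca Pepcb/BoyJ, a congenic line that carries the CD45.1 allele, at 5 months of age. Its 3 libraries, called libraries 1, 2 and 3 after their technical replicate numbers, are labelled technical replicates of 1 biosample and form 1 group. No treatment and no second cell type was compared, the sources used here do not give the sort gate, and every SD below is the spread between libraries.

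Actin monomers add to and leave the ends of filaments, and cells set the pace with proteins that hold monomers in reserve, start filaments, branch them, cap them and cut them. In T cells the filament network under the membrane drives migration, shapes the contact with an antigen-presenting cell and anchors receptors and integrins. Myosin II pulls on the filaments, and linker proteins of the ezrin, radixin and moesin family tie them to the membrane.

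Expected counts on annotated genes, estimates that divide a read among the transcripts it matches, came to 17475086 in library 1, against 15303744 in library 2 and 16882441 in library 3. Library 1 stood apart from the other libraries over the whole table. Of 13177 genes with at least 30 counts, 75.8% differed between the libraries beyond counting error (Pearson chi-square test of homogeneity, Benjamini-Hochberg adjusted p below 0.05 over all genes tested), against 16.7% of 12468 genes when libraries 2 and 3 were tested alone. The test compares libraries and not conditions. The cells carried 8 of 8 T cell markers, whose summed level was 14989 TPM (transcripts per 1000000 transcripts) in library 1, against 10141 in library 2 and 10101 in library 3. Of these markers Trac, Lck and Cd2 were at least 1.5-fold higher in library 1, and Cd3e and Cd4 at least 1.5-fold lower. Of 12 muscle and fibroblast markers only Tagln reached 1 TPM in every library, the list summed to 1.24, 2.85 and 3.36 TPM in libraries 1, 2 and 3, and Actc1, Myl9 and Col1a1 had no count. Myeloid markers summed to between 6.14 and 8.91 TPM, and 1 of 8 reached 1 TPM in every library. None of 5 B cell, 4 platelet or 4 endothelial markers did. Their sums lay between 1.56 and 3.24, 0.41 and 1.54, and 0 and 0.54 TPM. The B cell gene Cd79a had 0.66, 1.92 and 1.65 TPM in libraries 1, 2 and 3, and was at least 1.5-fold lower in library 1. The part of these differences in the results below was not tested.

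The actin cytoskeleton genes were among the abundant transcripts of these cells. Of the 45 IDs, 44 were detected, meaning at least 1 TPM in every library, against 21.1% of all annotated IDs. The exception was Vcl in library 1. The median of the members' mean levels was 301 TPM, against 24.1 TPM over all 11694 detected genes and 28.9 TPM over the 9900 protein-coding ones. The level passed 100 TPM for 34 members, which 16.7% of detected genes did, and 1000 TPM for 8 members. Together the members held 3.68% of all TPM in library 1, against 3.61% in library 2 and 3.65% in library 3, so their summed level differed little while single genes moved. Of expected counts they held 2.64% in library 1, against 2.76% in library 2 and 2.83% in library 3. Library 1 was thus highest in TPM and lowest in counts. In bulk RNA, fewer cells of a type and less RNA per cell cannot be told apart.

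**Figure D1:**
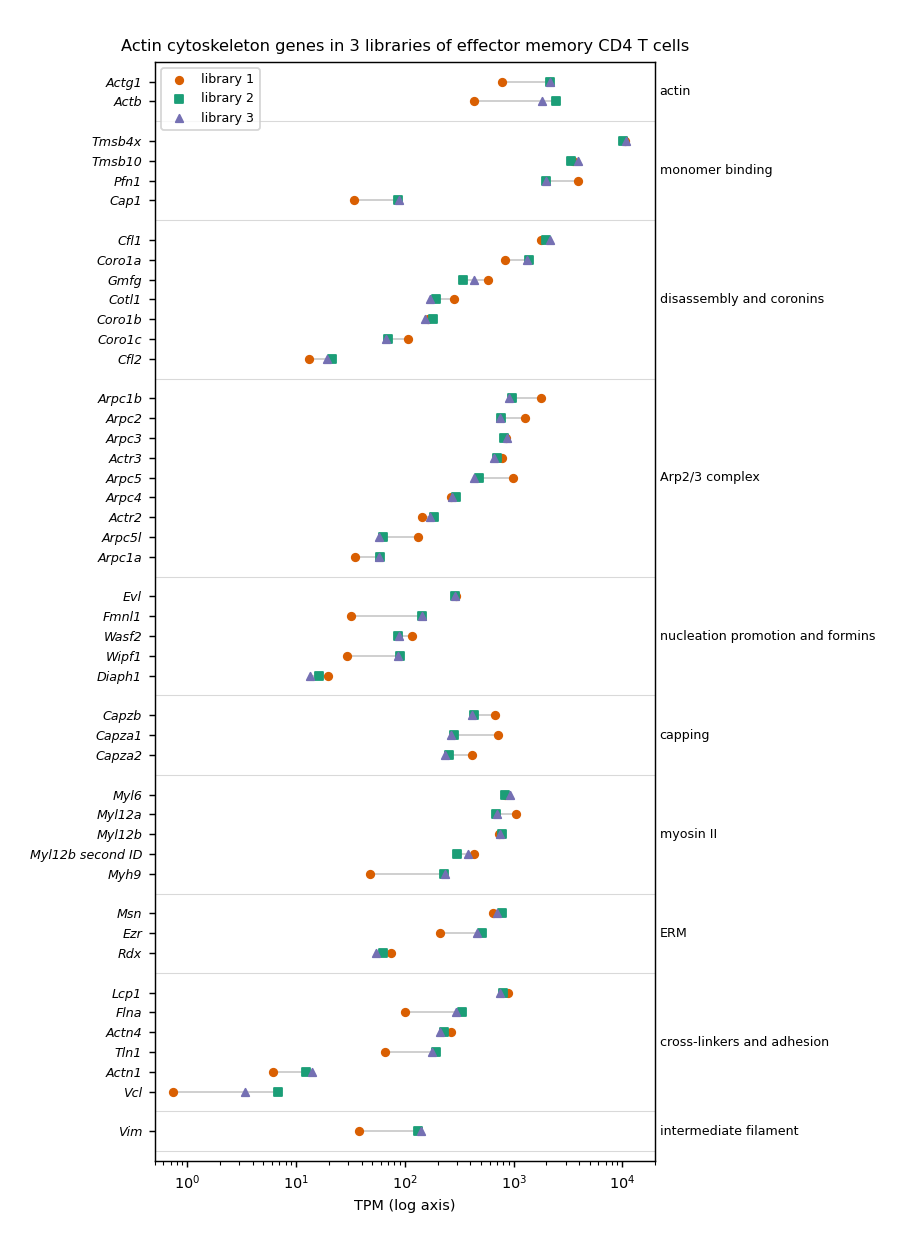
TPM on a log axis for the 45 gene IDs in library 1 (circles), library 2 (squares) and library 3 (triangles), grouped by role. The members run from Tmsb4x at 10489.8 TPM to Vcl at 3.64 TPM, and the circles lie apart from the other symbols for most of them, below them for Actb, Myh9 and Flna and above them for Pfn1 and Capza1.

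Counts of 43 of the 45 members differed between the 3 libraries, beside 75.8% of all genes tested. Only Coro1b (adjusted p = 0.135) and Arpc4 (adjusted p = 0.22) did not pass this chi-square test. A member was taken as lower or higher in library 1 when it passed, lay outside libraries 2 and 3, and differed at least 1.5-fold from their geometric mean in TPM + 1. By that rule 14 members were lower in library 1, or 31.1% beside 24.1% of all genes tested, and 12 were higher, or 26.7% beside 16.0%. The other 17 differed by less. Deep counts make a small difference pass: the members had a median of 17984 counts over the 3 libraries, against 1087 for all genes tested. Among genes with at least 1000 counts, 41 of 43 members passed beside 90.4% of such genes, 13 were lower beside 25.2%, and 12 were higher beside 20.3%. These shares of the members lay close to or somewhat above those of all genes. In libraries 2 and 3 alone 24 members passed, beside 16.7% of all genes and 24.3% of those with at least 1000 counts, but none of the 24 differed by 1.5-fold there, and the largest difference among them was 1.37-fold, for Actb. Vcl differed 1.77-fold in TPM and did not pass there (adjusted p = 0.0667, chi-square test). The median coefficient of variation of the members was 27.1% over all libraries and 5.23% over libraries 2 and 3, against 24.0% and 7.63% for all detected genes.

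The actin genes themselves were lower in library 1 and close to each other in level. Cytoplasmic actin comes in a beta form from Actb, at chr5:142903115-142906754 on the minus strand of GRCm38 (the assembly mm10), and a gamma form from Actg1, at chr11:120345690-120348542 on the minus strand. Their coding sequences were identical at 1000 of 1128 bases (88.7%), and the first 75 bases are shown because they hold the codons near the start at which the proteins differ. Capitals mark the bases that differ between the genes (chr5:142905612-142905686 for Actb and chr11:120348017-120348091 for Actg1, both minus strand).
Actb-201: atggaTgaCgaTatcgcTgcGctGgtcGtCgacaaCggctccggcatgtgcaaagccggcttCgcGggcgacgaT
Actg1-204: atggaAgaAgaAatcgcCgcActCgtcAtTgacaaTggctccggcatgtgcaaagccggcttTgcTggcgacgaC

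Actb had 429.9 TPM in library 1, against 2473 in library 2 and 1810.5 in library 3. Library 1 lay below both others, a log2 ratio of -2.30 or 4.91-fold lower, and the mean was 1571 ± 1042 TPM (SD, n = 3, as for every mean below). Actg1 had 782 TPM in library 1, against 2134 in library 2 and 2138 in library 3. Library 1 was again below both others, 2.73-fold lower (log2 ratio -1.45), while libraries 2 and 3 nearly coincided, and the mean was 1685 ± 782 TPM. Actg1 made up 64.5% of the summed actin in library 1, against 46.3% in library 2 and 54.2% in library 3. The share averaged 55.0 ± 9.13%, and Actb was the higher of the pair in library 2 alone, so these levels were not ordered beyond their spread.

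The Actb level depended on its transcript estimates. Actb-201, of 1920 bases, held 99.8% of Actb in library 1, against 27.1% in library 2 and 39.8% in library 3. The shorter coding transcripts Actb-208 (930 bases) and Actb-207 (1242 bases) were listed at 0 in library 1, and stood at 922 and 872 TPM in library 2 and at 583 and 501 TPM in library 3. Actb-201 alone had 429 TPM in library 1, against 671 in library 2 and 721 in library 3, a smaller gap in the same direction. The effective length given for Actb was 1869 bases in library 1, against 1259 in library 2 and 1361 in library 3. In CPM, counts per 1000000 annotated counts with no use of length, the log2 ratio was -1.74 in place of -2.30. Whether the shorter transcripts differed or the estimate did was not tested.

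Actg1 is also hard to count. Of the 50-base windows along its leading transcript, the length of a read here, 60.7% occur in a transcript of another gene, among them the processed pseudogenes Gm12715 at 5.32 TPM and Gm8399 at 2.00 TPM. Matches on the opposite strand were counted here and for every member. The corresponding share for Actb was 14.2%.

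Many actin genes respond to serum response factor (SRF), which reads actin monomer levels through its partner MRTF and binds the CArG box. RefSeq promoter windows of GRCm38.p6, from 250 bases before to 50 after a start site, were found for 39 member symbols and held a CArG box in 4 of them (10.3%), against 488 of 27025 genes (1.81%). The pattern searched is the same on both strands. Some genes have more than 1 window, and with the most upstream window of each gene alone 3 member symbols (7.69%) held a box, against 429 genes (1.59%). The matches are shown with the box in capitals, for Actg1 (chr11:120348566-120348595, minus strand), Arpc4 (chr6:113377863-113377882, plus strand), Myl6 (chr10:128493040-128493069, minus strand) and Vcl (chr14:20929161-20929190, plus strand).
Actg1: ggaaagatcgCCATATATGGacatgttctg
Arpc4: CCTAATTTGGtgcccaacct
Myl6: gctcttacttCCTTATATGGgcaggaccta
Vcl: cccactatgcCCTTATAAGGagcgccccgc
The box starts 90 bases before the window's start site in Actg1, 250 in Arpc4, 50 in Myl6 and 227 in Vcl. The Myl6 window belongs to a second start inside the gene, downstream of the start codon of Myl6-201 and Myl6-205. A match describes these letters only, and the 4 genes did not share a pattern: Actg1 and Vcl were lower in library 1, Myl6 had a log2 ratio of -0.09, and Arpc4 did not pass the test.

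Of the 4 member genes whose proteins bind actin monomers, the beta-thymosin genes had the highest levels and varied least between libraries. Thymosin beta 4, from Tmsb4x (chrX:167207093-167209315, minus strand), holds monomers in reserve. Tmsb4x had 10504 TPM in library 1, against 10113 in library 2 and 10852 in library 3, so library 1 lay between the others, and its mean of 10489.8 ± 369 TPM ranked 1 of all annotated genes. It alone made up 28.5% of the members' TPM in library 1, against 28.0% in library 2 and 29.7% in library 3.

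Its paralog Tmsb10 had 3514 TPM in library 1, against 3359 in library 2 and 3874 in library 3, with library 1 again between the others and a mean of 3582 ± 264 TPM. Both genes passed the chi-square test, at depths where a difference of a few percent passes, and neither reached 1.5-fold. Tmsb4x held 74.6 ± 0.758% of the pair, and their ranges did not overlap. Of the windows of the Tmsb10 transcript 63.5% occur in other genes, mainly in Gm9844 at 21.9 TPM, and no window of the leading Tmsb4x transcript does.

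Most of the Tmsb4x level was assigned to a transcript with a longer start. Tmsb4x-203 held 86.6% of the gene in library 1, against 86.7% in library 2 and 86.8% in library 3, and Tmsb4x-201 held 12.8%, against 12.4% and 12.5%. The shares of both transcripts were nearly level between libraries. Its annotated coding sequence adds 18 bases before the usual start codon, the form described in lymphoid tissue of mice. The first sequence shows this extension in capitals (spliced coding sequence within chrX:167207501-167209010, minus strand). The next pair shows the coding sequences of Tmsb4x-201 (chrX:167207501-167208036, minus strand) and Tmsb10-203 (chr6:72957618-72958012, minus strand), identical at 95 of 135 bases (70.4%), with the bases that differ in capitals.
Tmsb4x-203: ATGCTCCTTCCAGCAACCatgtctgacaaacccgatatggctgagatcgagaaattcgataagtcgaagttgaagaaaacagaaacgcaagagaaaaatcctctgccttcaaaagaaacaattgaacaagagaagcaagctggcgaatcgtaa
Tmsb4x-201: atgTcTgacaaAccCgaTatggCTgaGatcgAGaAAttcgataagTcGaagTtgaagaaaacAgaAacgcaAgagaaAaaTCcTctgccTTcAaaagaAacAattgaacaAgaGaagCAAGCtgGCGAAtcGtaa
Tmsb10-203: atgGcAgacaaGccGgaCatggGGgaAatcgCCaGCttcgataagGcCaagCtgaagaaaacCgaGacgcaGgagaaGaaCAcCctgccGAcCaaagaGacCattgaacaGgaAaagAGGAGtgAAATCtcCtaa

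Profilin 1, from Pfn1, hands monomers to growing filament ends. Pfn1 had 3884 TPM in library 1, against 1962 in library 2 and 1964 in library 3, a mean of 2603 ± 1109 TPM. Library 1 lay above libraries 2 and 3, which coincided, at 1.98-fold higher (log2 ratio 0.98). Cap1, the cyclase-associated protein that recycles monomers together with cofilin, went the other way. It had 34.0 TPM in library 1, against 86.2 in library 2 and 88.3 in library 3, 2.52-fold lower in library 1, with a mean of 69.5 ± 30.7 TPM.

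Of the 7 genes that take filaments apart or bind their sides, 3 were higher in library 1, beside 16.0% of all genes tested, and 1 was lower, beside 24.1%. Cofilin 1, from Cfl1, severs old filaments and was the highest of them. Cfl1 had 1798 TPM in library 1, against 1964 in library 2 and 2166 in library 3, a mean of 1976 ± 184 TPM and a log2 ratio of -0.20, below 1.5-fold. Its muscle-type paralog Cfl2 had 13.1 TPM in library 1, against 21.3 in library 2 and 19.1 in library 3, a mean of 17.8 ± 4.21 TPM, and differed 1.497-fold, just under the threshold. Cfl1 made up 99.1 ± 0.174% of the pair, and the transcript of Cfl2 with the highest mean share, Cfl2-203, is not of protein-coding class. Gmfg, glia maturation factor gamma, which removes branches from Arp2/3 networks, had 582 TPM in library 1, against 345 in library 2 and 429 in library 3. Library 1 was above both others, 1.51-fold higher and just past the threshold, with a mean of 452 ± 120.2 TPM; 44.2% of its windows occur in the pseudogene Gmfg-ps. Cotl1, the coactosin-like filament binder, had 283 TPM in library 1, against 194 in library 2 and 169.8 in library 3, 1.56-fold higher in library 1 with a mean of 216 ± 59.6 TPM.

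The coronins bind filaments and Arp2/3, and Coro1a is the form of blood cells, which naive T cells need to survive. Coro1a (chr7:126699773-126707787, minus strand) had 829 TPM in library 1, against 1394 in library 2 and 1316 in library 3. Library 1 lay below both others, 1.63-fold lower, and the mean was 1179.7 ± 306 TPM, but the log2 ratio of -0.71 was -0.57 in CPM scaled by TMM (a library-size correction) and -0.04 in the whole-number counts on M4 annotation, both under 1.5-fold. Coro1b had 164 TPM in library 1, against 180.3 in library 2 and 154 in library 3, overlapping values with a mean of 166 ± 13.1 TPM. Coro1c had 107 TPM in library 1, against 69.5 in library 2 and 67.2 in library 3, 1.56-fold higher in library 1 with a mean of 81.2 ± 22.3 TPM. Coro1a held 75.4% of the coronin trio in library 1, against 84.8% in library 2 and 85.6% in library 3, and led in each.

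The Arp2/3 complex starts new filaments on the sides of old ones and has 7 subunit positions, 2 of them with paralogs among the members. Of its 9 genes, 4 were higher in library 1, beside 16.0% of all genes tested, 1 was lower, beside 24.1%, 3 passed the test with less than 1.5-fold and Arpc4 did not pass. In the whole-number counts on M4 annotation, which have a ceiling described below, only Arpc5l stayed past 1.5-fold (log2 ratio 0.996). Of all genes tested, 15.6% were higher and 15.2% lower in those counts. The log2 ratios there were 0.14 for Arpc1b, 0.06 for Arpc2, 0.28 for Arpc5 and -0.27 for Arpc1a. Arpc1b, the blood cell form of the ARPC1 subunit, led the class. Arpc1b had 1776 TPM in library 1, against 959.8 in library 2 and 897 in library 3, 1.91-fold higher in library 1, with a mean of 1211 ± 491 TPM. Its paralog Arpc1a had 34.7 TPM in library 1, against 59.1 in library 2 and 57.6 in library 3, 1.66-fold lower in library 1, with a mean of 50.5 ± 13.7 TPM. The paralogs thus moved in opposite directions, and Arpc1b held 98.1% of the pair in library 1, against 94.2% in library 2 and 94.0% in library 3.

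Arpc5 had 986 TPM in library 1, against 484 in library 2 and 431 in library 3, a mean of 633 ± 307 TPM. Arpc5l, its paralog, had 131 TPM in library 1, against 63.0 in library 2 and 57.8 in library 3, a mean of 84.0 ± 41.0 TPM. Both were higher in library 1 by nearly the same factor, 2.16-fold and 2.15-fold, so the Arpc5 share of the pair hardly varied at 88.3 ± 0.156%. Arpc2, the large scaffold subunit, had 1271 TPM in library 1, against 758 in library 2 and 756 in library 3, 1.68-fold higher in library 1 with a mean of 928 ± 297 TPM.

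Actr3, one of the actin-related subunits that form the first stub of the branch, had 776 TPM in library 1, against 703 in library 2 and 656 in library 3, a mean of 712 ± 60.3 TPM. Its partner Actr2 had 145 TPM in library 1, against 184 in library 2 and 171 in library 3, a mean of 166 ± 19.98 TPM. Library 1 was the highest for Actr3 and the lowest for Actr2, both by less than 1.5-fold, and 49.8% of the Actr3 windows occur in other genes. Arpc3 averaged 845 ± 28.5 TPM and Arpc4 277 ± 15.9 TPM, and library 1 differed from the others by log2 ratios of 0.02 and -0.08.

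Summed over paralogs, transcripts of the 7 positions were not at equal levels. The ARPC1 position was highest at 1261 ± 477 TPM and Actr2 lowest at 166 ± 19.98 TPM. Their ratio was 12.5 in library 1, against 5.54 in library 2 and 5.59 in library 3. The ARPC1 position led in every library. Arpc4 was lowest but for Actr2 in every library, at 267, 295 and 269 TPM in libraries 1, 2 and 3.

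**Figure D2:**
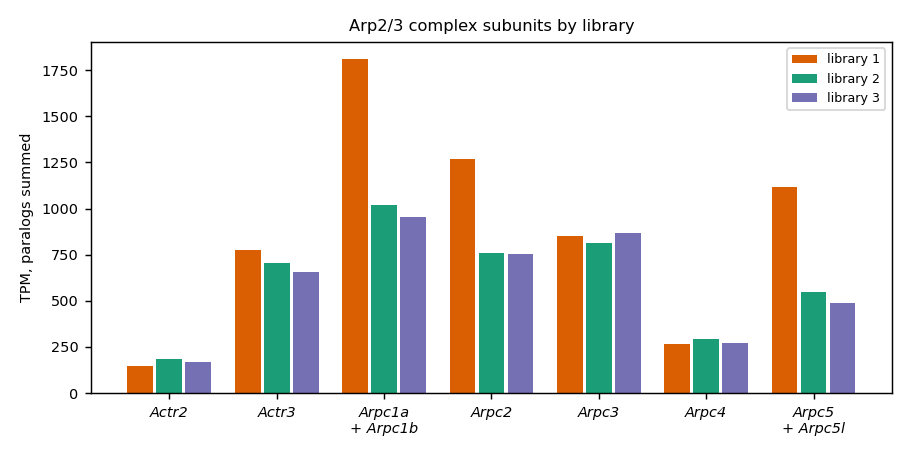
TPM of the 7 Arp2/3 subunit positions, with paralogs summed, in libraries 1, 2 and 3 (bars from left to right). Library 1 stands above the others at ARPC1, Arpc2 and ARPC5 (1811, 1271 and 1117 TPM), while the bars are near level at Arpc3 and Arpc4.

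The proteins that switch on Arp2/3 or lengthen filaments were less abundant, and 2 of 5 were lower in library 1, beside 24.1% of all genes tested. Evl, an Ena/VASP protein that feeds filament ends, was the highest of them. Evl had 297 TPM in library 1, against 286 in library 2 and 291 in library 3, the narrowest relative range of the 5, with a mean of 291 ± 5.32 TPM (adjusted p = 0.000138, chi-square test). Of the windows of its leading transcript 44.04% also occur, on either strand, in Degs2, which stood at 0.783 TPM. Fmnl1, a formin of blood cells, had 31.7 TPM in library 1, against 142 in library 2 and 143 in library 3. Library 1 lay far below both others, 4.39-fold lower (log2 ratio -2.13), and the mean was 106 ± 64.0 TPM. Wipf1, the partner that stabilises WASP, had 29.1 TPM in library 1, against 89.3 in library 2 and 86.2 in library 3, 2.95-fold lower in library 1 with a mean of 68.2 ± 33.9 TPM. The formin Diaph1 had 19.7 TPM in library 1, against 16.2 in library 2 and 13.4 in library 3, a mean of 16.4 ± 3.15 TPM, with library 1 the highest by less than 1.5-fold.

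Wasf2, the WAVE2 subunit through which Rac turns on Arp2/3, changed direction with the unit. It had 117 TPM in library 1, against 85.6 in library 2 and 88.2 in library 3, a mean of 96.8 ± 17.2 TPM and a log2 ratio of 0.42. Its expected counts were 1332 in library 1, against 2293 in library 2 and 2795 in library 3, a log2 ratio of -1.04 in CPM. Library 1 was thus the highest in TPM and the lowest in counts. The full-length Wasf2-201 held 7.21% of the gene in library 1, against 45.4% in library 2 and 46.3% in library 3. The 483-base Wasf2-206 held 50.5%, against 17.1% and 21.5%. The effective length was 1063 bases in library 1, against 3019 in library 2 and 3059 in library 3, and its part in the reversal was not tested.

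Capping protein, a dimer of an alpha and a beta chain, stops growth at filament ends. Its 3 genes were all higher in library 1 in TPM, beside 16.0% of all genes. None stayed 1.5-fold higher in the whole-number counts on M4 annotation, beside 15.6% of all genes tested. The log2 ratios there were 0.33 for Capza1, 0.41 for Capza2 and 0.16 for Capzb. Capza1 had 712 TPM in library 1, against 285 in library 2 and 265 in library 3. Library 1 lay above both others by 2.58-fold (log2 ratio 1.37), the largest ratio among the members, and the mean was 421 ± 252 TPM. Of its windows 77.4% occur elsewhere, mostly in the pseudogene Gm3608 at 8.14 TPM. Capza2 had 412 TPM in library 1, against 257 in library 2 and 233 in library 3, 1.68-fold higher in library 1 with a mean of 301 ± 96.8 TPM. The beta chain gene Capzb had 667 TPM in library 1, against 433 in library 2 and 415 in library 3, 1.57-fold higher with a mean of 505 ± 140.4 TPM. Capza1 held 63.4% of the alpha chains in library 1, against 52.6% in library 2 and 53.2% in library 3. The 2 alpha chains summed to more TPM than the single beta chain in each library.

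Myosin II is built from heavy chains, essential light chains and regulatory light chains, and in library 1 the heavy chain was lower and 1 regulatory chain was higher. Myh9 (chr15:77760587-77842175, minus strand) encodes the main heavy chain of T cells. It had 47.9 TPM in library 1, against 227 in library 2 and 235 in library 3. Library 1 lay 4.75-fold below the others (log2 ratio -2.25), and the mean was 170.0 ± 106 TPM. The essential light chain gene Myl6 had 825 TPM in library 1, against 825 in library 2 and 933 in library 3, a mean of 861 ± 62.4 TPM. Libraries 1 and 2 were level and library 3 was higher. In TPM, which is per length, light chains outnumbered the heavy chain: Myl6 was above Myh9 in every library.

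Myl6 was split between its transcripts. Myl6-201 held 46.2% of the gene in library 1, against 41.4% in library 2 and 44.3% in library 3, and Myl6-205 held 47.2%, against 49.9% and 48.1%. The order was the same in every library, with Myl6-205 ahead. The transcripts differ by a 36-base segment near the start of the coding sequence, which is in capitals in the first of these stretches (both within chr10:128492680-128493811, minus strand).
Myl6-201: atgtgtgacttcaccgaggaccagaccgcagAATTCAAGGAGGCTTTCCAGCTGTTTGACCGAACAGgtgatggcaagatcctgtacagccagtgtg
Myl6-205: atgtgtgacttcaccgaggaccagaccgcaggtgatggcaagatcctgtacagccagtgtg

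The regulatory light chain genes Myl12a and Myl12b are neighbours on chromosome 17, and a second Myl12b ID (ENSMUSG00000117098, chr17:70974119-71002208, minus strand) overlaps both. Myl12a had 1058 TPM in library 1, against 687 in library 2 and 695 in library 3. Library 1 was above both others, 1.53-fold higher, and the mean was 813 ± 212 TPM. Myl12b had 729.7 TPM in library 1, against 776 in library 2 and 741 in library 3, a mean of 749 ± 24.3 TPM (adjusted p = 0.0366, chi-square test). The second ID had 429.9 TPM in library 1, against 303 in library 2 and 377 in library 3, a mean of 370.0 ± 63.8 TPM. In TPM library 1 was the lowest for Myl12b and the highest for the second ID, whereas in CPM the log2 ratio of Myl12b was 0.06. Myl12a held 59.2% of the Myl12a and Myl12b sum in library 1, against 46.9% in library 2 and 48.4% in library 3, so it led in library 1 alone. The second ID was left out of this sum. Counted with Myl12b, it would put Myl12b ahead of Myl12a in library 1 as well.

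These levels are uncertain, since the 2 Myl12b IDs share an identical coding sequence, and Myl12a and Myl12b match at 501 of 519 bases (96.5%). The share of windows found in other genes was 54.9% for Myl12a, 72.6% for Myl12b and 93.9% for the second ID. The first 75 coding bases show how few differences a read can meet, with the differing bases in capitals (chr17:70996806-70996880 for Myl12a and chr17:70977157-70977231 for Myl12b, minus strand).
Myl12a-208: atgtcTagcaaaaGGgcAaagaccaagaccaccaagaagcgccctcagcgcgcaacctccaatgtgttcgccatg
Myl12b-204: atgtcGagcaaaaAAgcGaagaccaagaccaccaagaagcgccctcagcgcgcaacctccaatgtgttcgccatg

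Of the 3 genes whose proteins tie filaments to the membrane, ezrin alone was at least 1.5-fold lower in library 1 and none was that much higher. Moesin, from Msn (chrX:96096042-96168552, plus strand), is the main form in lymphocytes. Msn had 647 TPM in library 1, against 784 in library 2 and 696 in library 3, a mean of 709 ± 69.2 TPM, and differed by less than 1.5-fold. Ezr had 212 TPM in library 1, against 509 in library 2 and 455 in library 3, 2.27-fold lower in library 1 with a mean of 392 ± 159 TPM. Rdx had 74.0 TPM in library 1, against 62.2 in library 2 and 53.8 in library 3, a mean of 63.3 ± 10.2 TPM, with library 1 the highest. Msn held 69.4% of the trio in library 1, against 57.8% in each of libraries 2 and 3, and Msn, Ezr and Rdx kept that order in every library.

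**Figure D3:**
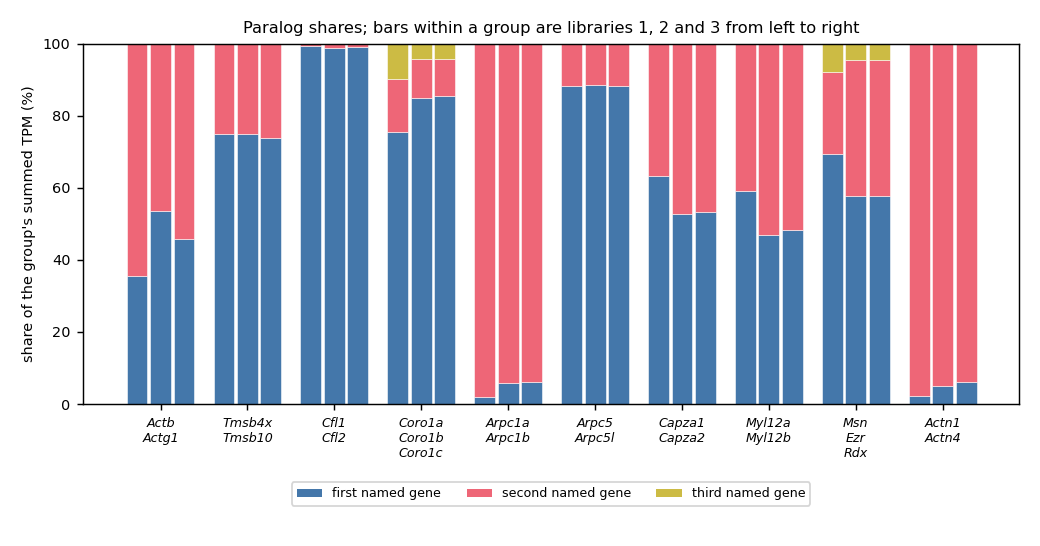
Share of each paralog group's summed TPM, in percent, with bars for libraries 1, 2 and 3 from left to right in each group and colours for the genes in the order named below the bars. Tmsb4x, Cfl1 and Arpc5 hold nearly the same share in each library, while the share of Actg1 runs from 46.3% to 64.5% and that of Myl12a from 46.9% to 59.2%. The second Myl12b ID is left out of the Myl12a and Myl12b group.

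Cross-linkers and adhesion proteins had 4 of 6 genes lower in library 1, beside 24.1% of all genes tested, and none higher, beside 16.0%. L-plastin, from Lcp1, bundles filaments in blood cells and was the highest. Lcp1 had 886 TPM in library 1, against 799 in library 2 and 748 in library 3, a mean of 811 ± 69.6 TPM, with library 1 the highest by less than 1.5-fold. Filamin A, from Flna, joins filaments into a gel. Flna had 100.0 TPM in library 1, against 334 in library 2 and 294 in library 3, 3.11-fold lower in library 1, with a mean of 243 ± 125 TPM. Talin, from Tln1, links the integrin LFA-1 to actin. Tln1 had 66.1 TPM in library 1, against 194 in library 2 and 179 in library 3, 2.79-fold lower in library 1, with a mean of 146 ± 69.9 TPM. Library 1 was below both others for both genes.

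Alpha-actinin was nearly all Actn4, which held 95.5 ± 2.06% of the pair. Actn4 had 266 TPM in library 1, against 228 in library 2 and 211 in library 3, a mean of 235 ± 28.3 TPM, with a difference under 1.5-fold. Actn1 had 6.08 TPM in library 1, against 12.2 in library 2 and 14.0 in library 3, 1.99-fold lower in library 1, with a mean of 10.8 ± 4.16 TPM. Vinculin, which reinforces talin at adhesions, was the least abundant member. Vcl had 0.74 TPM in library 1, against 6.78 in library 2 and 3.40 in library 3, a mean of 3.64 ± 3.03 TPM and 39.8, 204 and 174 expected counts (adjusted p = 3.72e-28, chi-square test). Library 1 was lowest at a log2 ratio of -1.75, libraries 2 and 3 did not pass the test between them, and 39.2% of the Vcl windows also occur in the neighbouring gene Ap3m1 at 42.8 TPM. Vim, for the intermediate filament protein vimentin, had 37.6 TPM in library 1, against 132 in library 2 and 140.4 in library 3, 3.56-fold lower in library 1 (log2 ratio -1.83), with a mean of 103 ± 57.1 TPM.

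Across the 45 IDs ordered by mean level, 44 pairs of neighbours could be compared, and the libraries' ranges failed to overlap for 2 of them, Tmsb4x above Tmsb10 and Arpc1a above Cfl2. The order is therefore clear between distant members only.

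Members with long transcripts made up most of those lower in library 1. Of 15 members whose leading transcript had at least 3000 bases, 8 were lower in library 1, beside 36.2% of the 4111 genes tested with such transcripts, and 2 were higher, beside 5.64%. Of 30 shorter ones, 6 were lower, beside 18.6% of 9066 genes, and 10 were higher, beside 20.6%. The median length of the leading transcript was 3449 bases for the 14 lower members, against 1518 bases for the 12 higher ones. Over the 45 members the log2 ratio and this length had a Spearman correlation of -0.39, beside -0.24 over 11689 detected genes. With the GC content of the transcript the values were -0.20 and -0.10. These correlations run across genes of the same libraries, and genes are not independent replicates.

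Several long genes also had a larger share in short transcripts in library 1, but this was not general. Short here means under 50% of the length of the gene's longest coding transcript. Such transcripts held a median of 13.8% of a member's TPM in library 1, against 15.1% in library 2 and 13.5% in library 3. For detected protein-coding genes the medians were 13.1%, against 14.3% and 15.2%. Other long members, such as Ezr and Lcp1, had their smallest short share in library 1. Tln1-201, of 8393 bases, held 32.9% of Tln1 in library 1, against 83.8% in library 2 and 75.5% in library 3, and the 836-base Tln1-206 held 62.3%, against 13.4% and 19.97%. Myh9-201 held 52.4% of Myh9 in library 1, against 79.2% and 76.3%. Flna-202 held 34.9% of Flna in library 1, against 53.8% and 56.1%, and the 738-base Flna-215 held 24.7%, against 1.22% and 0. In each of these genes the leading form had its lowest share in library 1. The log2 ratio in CPM was -2.49 for Tln1, -2.66 for Myh9 and -2.02 for Flna, each further from 0 than in TPM. The part of RNA quality or of length in these differences was not tested.

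For 39 of the 45 IDs the leading transcript was the same in every library, and it held over 50% of the gene in every library for 32. It differed for Actb, Cfl2, Tln1, Vim, Wasf2 and Wipf1. The median share of the leading transcript was 73.1%. Transcripts not of protein-coding class held a median of 5.17% of a member's TPM in library 1, against 8.99% in library 2 and 7.84% in library 3. Over detected protein-coding genes the medians were 12.2%, against 14.97% and 15.6%.

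**Figure D4:**
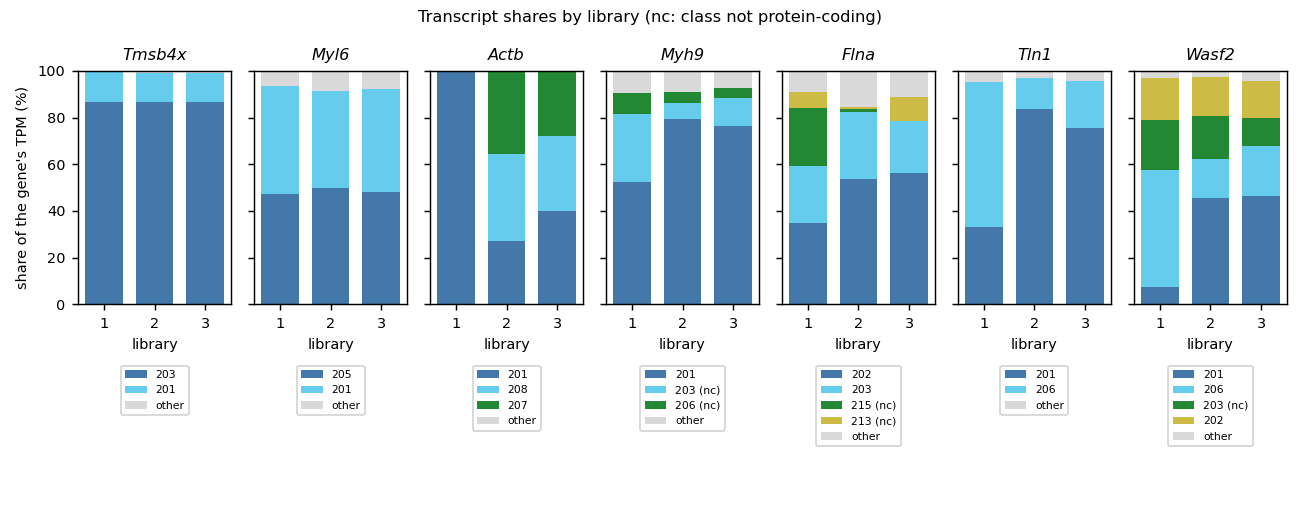
Share of a gene's TPM in its main transcripts, in percent, in libraries 1, 2 and 3, for 7 members, with the transcript number in each legend and the remainder in grey. The bars of Tmsb4x and Myl6 are nearly level, whereas the lowest segment is largest in library 1 for Actb (99.8%) and smallest there for Tln1 (32.9%) and Wasf2 (7.21%).

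The authors' whole-number count table on GENCODE M4 annotation covered 44 of the IDs and gave smaller differences for many of them. Its log2 ratios had the same sign for all 26 members that were 1.5-fold apart in library 1. Of these, 10 of the 14 lower members and 2 of the 12 higher ones, Coro1c and Arpc5l, passed 1.5-fold there. In all, 11 members were lower there, beside 15.2% of all genes tested, and 2 were higher, beside 15.6%. The shares of all genes tested in TPM were 24.1% and 16.0%. Actb had 1613 counts in library 1, against 1851 in library 2 and 1845 in library 3, a log2 ratio of -0.18 in CPM. Pfn1 had a log2 ratio of 0.02, against 0.98 in TPM. That table has a ceiling: no gene of at least 300 exon bases, of 22025 such genes, had more than 1.85, 1.88 and 1.90 counts per exon base in libraries 1, 2 and 3. Pfn1 had 966, 959 and 974 counts in libraries 1, 2 and 3, and Tmsb4x had 488, 489 and 494, against 74385, 59148 and 74052 expected counts, whereas Tmsb10 varied more, at 81, 95 and 103. The part of this ceiling in the smaller ratios was not tested, so the ratios of the tables are not directly comparable. Myh9 (-2.14), Tln1 (-2.07) and Vcl (-1.72) had ratios of similar size to those in TPM, or larger for Tln1. For the members these counts were between 0.451% (Actg1) and 86.7% (Vcl) of the expected counts.

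**Figure D5:**
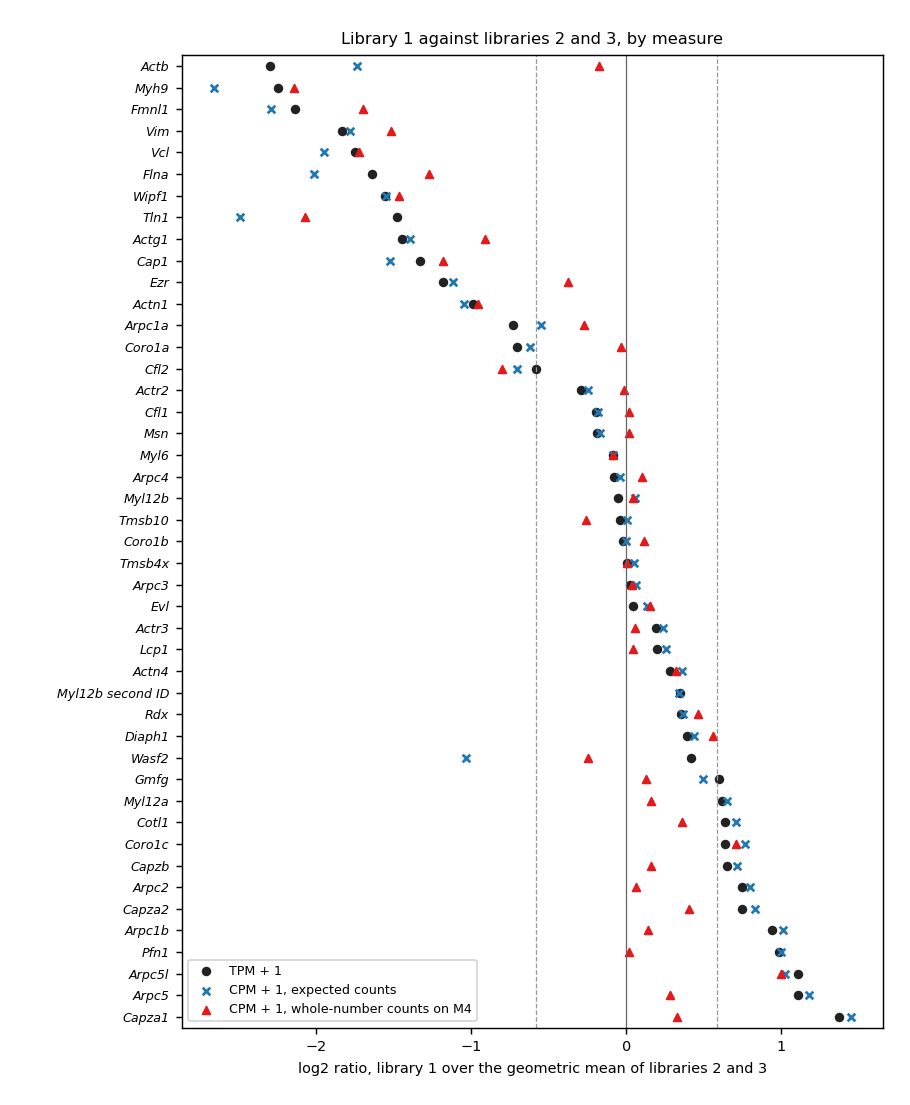
Log2 ratio of library 1 over the geometric mean of libraries 2 and 3 for each member, ordered by the TPM value (circles), with CPM from the expected counts (crosses) and from the whole-number counts on M4 (triangles); dashed lines mark 1.5-fold. The circles run from -2.30 for Actb to 1.37 for Capza1, most triangles of the higher members lie nearer 0, and Wasf2 changes side between circle and cross.

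Other genes of the actin pathway, 103 in 8 lists, had 85 detected and 91 tested genes. Of these 76 passed the chi-square test, beside 75.8% of all genes; 31 were lower in library 1, beside 24.1%, and 9 were higher, beside 16.0%. Upstream of Arp2/3, the WASP and WAVE list had 5 of 15 tested genes lower and none higher. Dbnl, an adaptor that binds filaments, had 173 TPM in library 1, against 134 in library 2 and 125 in library 3, and Abi1, a WAVE complex subunit, had 146 TPM in library 1, against 132 in library 2 and 124 in library 3. Neither reached 1.5-fold.

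LIM kinase, slingshot, ROCK and PAK genes, listed with the kinase genes Stk10 and Slk, had 6 of 10 lower and none higher in library 1. Of all genes tested, 24.1% were lower and 16.0% higher, which stands beside each list count below. The kinase gene Rock1 had 118 TPM in library 1, against 189 in library 2 and 181 in library 3, and Ssh2, a slingshot phosphatase that turns cofilin on, had 78.2 TPM in library 1, against 211 in library 2 and 197 in library 3. Both were lower in library 1. Among other monomer and filament binders 2 of 19 were lower and 4 higher. The tropomyosin gene Tpm3 had 1075 TPM in library 1, against 706 in library 2 and 694 in library 3 and was higher, and Lsp1, a filament binder of leukocytes, had 792 TPM in library 1, against 733 in library 2 and 755 in library 3, under 1.5-fold.

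Other formins had 1 of 6 lower, beside 24.1% of all genes tested, and 1 higher, beside 16.0%. Inf2 had 43.2 TPM in library 1, against 29.4 in library 2 and 27.7 in library 3 and did not pass the test (adjusted p = 0.222, chi-square test). Fmnl3 had 8.84 TPM in library 1, against 43.5 in library 2 and 39.8 in library 3 and was lower, as its paralog Fmnl1 was. Other myosins had 4 of 10 lower and 1 higher: Myo1f had 198 TPM in library 1, against 139 in library 2 and 117 in library 3 and was higher, and Myo1g had 83.7 TPM in library 1, against 140.0 in library 2 and 117 in library 3 and was lower. Partners of talin and other linkers had 3 of 8 lower and 1 higher. Fermt3, the kindlin of blood cells, had 153 TPM in library 1, against 193 in library 2 and 169 in library 3, and the adhesion protein gene Zyx had 96.3 TPM in library 1, against 119.9 in library 2 and 109 in library 3, both under 1.5-fold. In the SRF list 2 of 5 were lower and none higher. Cnn2, a calponin, had 360.3 TPM in library 1, against 438 in library 2 and 402 in library 3, under 1.5-fold. Mrtfa, the SRF partner that senses actin monomers, had 11.3 TPM in library 1, against 53.4 in library 2 and 52.5 in library 3 and was lower in library 1.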

How the data were processed

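PolyA plus RNA of 1 biosample was sequenced in 3 libraries labelled technical replicates, at 15303744 to 17475086 expected counts on annotated genes. On build mm10 with GENCODE M21, per the file headers and notes deposited with the samples, the authors deposited expected counts (estimated reads that need not be whole), TPM and FPKM for genes and transcripts, and the percent share of each transcript in its gene. The authors also deposited a whole-number count table on GENCODE M4 without a header. The sources used here do not give the aligner, quantifier or use of strand. Reads of 50 bases fit the effective lengths. Rows with no annotated gene ID (0.226% to 0.304% of expected counts) were left out.

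The members and lists were chosen with earlier results of these data known. Expected counts were rounded and each gene was tested with Pearson's chi-square test against library totals, which measures spread between these libraries, may be technical and covers counting error only. No quasi-likelihood test was made, since there is 1 group. Ratios used log2(TPM + 1), which understates the change of low genes. All members were named; values per library were given for paralog groups, the highest of each role, the 5 largest and 5 smallest ratios and any below 1 TPM, and for the 2 highest of each other pathway list, of which 1 enters the totals but is not reported here; other genes named were chosen after their values were seen. Shares among genes with at least 1000 counts, by transcript length and for the most upstream promoter window were also added after the values were seen. Alternatives used other units, TMM sizes from edgeR 4.0.16 in R 4.3.3, overdispersion, filters, pseudocounts, the M4 counts and leaving out each library. The test was checked on simulated data that held only counting error and set changes in library 1. That check does not cover spread beyond counting error, which these libraries had. Sequences came from GENCODE M21 transcripts and RefSeq promoters. Other steps ran in Python 3.11.15 with pandas 2.3.3, scipy 1.17.1 and numpy 2.4.6.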

Additional observations from a re-analysis of the deposited data

How the results depend on the processing

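The median member level was 301 TPM, 181 FPKM, and 289 to 334 TPM with a library left out. Detection counts were 44 to 45 under every alternative run. Members that differed between libraries numbered 43 at first, beside 75.8% of all genes tested, and 43 with TMM sizes, beside 75.6%. They numbered 33 after division by the median overdispersion of 13.8, beside 27.1%, and 42 with no count filter, beside 35.8%. In the M4 counts 28 differed, beside 68.4%. Without library 1, 24 differed, beside 16.7%, and without library 2 or 3, 42 differed, beside 74.6% and 73.5%. Beside the same shares of all genes tested, other pathway genes numbered 76, 43 after that division and 27 to 75 with a library left out. The 27 were again without library 1, and these alternatives were chosen after seeing the data. Members lower in library 1 numbered 14, beside 24.1% of all genes tested, and 11 in the M4 counts, beside 15.2%. They numbered 11 with a fold of 2, beside 12.5%, and 14 to 15 with library 2 or 3 left out, beside 23.8% to 25.2%. Those higher numbered 12, beside 16.0% of all genes tested, but 2 in the M4 counts, beside 15.6%. They numbered 3 with a fold of 2, beside 5.16%, and 11 with library 2 or 3 left out, beside 17.2% and 15.4%. The leading transcript's median share was 73.1%, 83.2% by expected counts, 86.7% among protein-coding transcripts, and 74.2% to 77.4% with a library left out. The median share of the leading paralog was 78.2%, and 77.4% to 79.8% with a library left out, and the Arp2/3 ratio was 7.88, and 5.56 (without library 1) to 9.05. Myl12a no longer led its pair by expected counts (48.9%) or without replicate 1, its share with a library left out being 47.7% to 53.8%. The second Myl12b ID was left out of this pair throughout. Of single ratios, TMM-scaled CPM took Gmfg, Coro1a and Arpc1a below 1.5-fold. It also put Wasf2 (log2 ratio -0.98) and Cfl2 (-0.65) past 1.5-fold on the lower side. The M4 counts took 14 members below 1.5-fold. Leaving out library 2 took Gmfg below it (log2 ratio 0.44), and leaving out library 3 took Cotl1 (0.54). A pseudocount of 0.1 took none. For the reversed share and the lost calls the cause was not tested. No paired analysis was possible because the libraries form 1 group. Depth limited Vcl most, at 417 counts in all.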
